A study of Homo sapiens with 6 samples.

Results

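FLNA and FLNC encode filamin A and filamin C, 2 members of the family of large actin cross-linking proteins. They are 2 of the 30960 genes in the deposited table and were found by their symbols, with 1 row each. The pair was chosen by its CPM values in PKI against inPKI in these same 6 libraries, where the difference in FLNC was already known. CPM, the deposited unit, is a gene's reads scaled for the size of its library. The comparison of PKI with inPKI is therefore given for both genes as a description, without a test.

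The libraries came from HEK293 cells, an established line from human embryonic kidney. Cells of the PKI group expressed a fusion of GFP with PKI1-24, and cells of the inPKI group, the control, a fusion of GFP with inPKI1-24. The plasmid was given at 158 ng per square centimetre, and RNA was taken after 48 h. PKI proteins bind and block the catalytic subunit of protein kinase A, the cAMP-dependent kinase. The labels' protocols describe transfection with Lipofectamine, although the study's design text speaks of transduction, and give no share of cells that took up the plasmid. In RNA from a whole culture, a large change in few cells and a small change in many cannot be told apart. Each group holds 3 libraries, A, B and C, of 17244715 to 23589438 reads, and nothing in the labels says that they came from separate cultures, so the spread among them may be technical. Of 8 genes commonly detected in HEK293 cells, 7 passed the filter on low values, with VIM at 605 ± 41.3 CPM in PKI and 638 ± 12.5 CPM in inPKI (SD, n = 3 each). None of the 7 passed the threshold of 0.05, and only 0.126% of the 14275 genes tested did. The smallest p of the 7 was at NEFL, a neurofilament gene (59.8 ± 3.75 and 68.5 ± 0.843 CPM in PKI and inPKI, adjusted p = 0.178, limma).

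Filamins are dimers whose amino-terminal domain, a tandem of calponin homology folds, holds actin filaments, while a chain of immunoglobulin-like repeats binds membrane receptors, integrin tails and signalling proteins. Filamin A is widespread, and its protein is a known substrate of protein kinase A. Filamin C is best known from skeletal and cardiac muscle, where it sits at the Z-disc, and damaged filamin is cleared there by an autophagy pathway led by the co-chaperone BAG3.

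FLNA (ENSG00000196924.14) lies on the minus strand of chromosome X, 154348524 to 154374638, and FLNC (ENSG00000128591.15) on the plus strand of chromosome 7, 128830377 to 128859274, both protein coding in GENCODE 29 on GRCh38. The longest transcripts are alike in build. That of FLNA has 48 exons, 8516 nt and a GC content of 62.2%, and that of FLNC has 48 exons, 9188 nt and a GC content of 62.3%. Their coding sequences, 7941 nt in FLNA and 8175 nt in FLNC, were identical at 74.4% of 7913 aligned bases. The stretches just upstream of the starts are shown because the 2 genes differed in the size of their change. Whether any letters in them bear on that difference was not tested. The sequences are from RefSeq (GRCh38.p14), 250 bases up to RefSeq's own start, 5′ to 3′, FLNC at chr7:128830156-128830405 on the plus strand and FLNA at chrX:154374635-154374884 on the minus strand. Capitals mark, in FLNC from left to right, GCGGGGGCG (bound by EGR factors), CATTCC (bound by TEAD factors) and TGACG (the half-site of the cAMP response element), and in FLNA a CArG box, the element bound by SRF.
FLNC: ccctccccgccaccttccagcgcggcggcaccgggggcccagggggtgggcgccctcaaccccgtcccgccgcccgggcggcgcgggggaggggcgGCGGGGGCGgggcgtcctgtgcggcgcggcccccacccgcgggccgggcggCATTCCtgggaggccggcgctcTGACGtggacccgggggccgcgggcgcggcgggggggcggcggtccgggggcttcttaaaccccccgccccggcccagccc
FLNA: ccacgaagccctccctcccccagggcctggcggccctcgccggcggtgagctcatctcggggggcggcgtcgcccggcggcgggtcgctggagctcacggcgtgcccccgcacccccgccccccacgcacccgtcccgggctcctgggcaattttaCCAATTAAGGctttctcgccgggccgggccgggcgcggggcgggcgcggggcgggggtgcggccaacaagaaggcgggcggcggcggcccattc

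Both strands were searched, and positions are those of the first base of a match relative to RefSeq's start. That start is not the GENCODE one given above: the last 29 bases of the FLNC window and the last 4 of the FLNA window lie inside the GENCODE gene. In FLNC the match to GCGGGGGCG was at -154, that to CATTCC at -103 and that to TGACG at -81, and of 35116 promoters of the same length 4.72%, 11.9% and 21.2% held these letters. In FLNA the CArG box was at -94, and 1.16% of promoters held one. None of these 4 was in the other gene. GGGCGG, the GC box, was found 5 times in FLNA and 7 times in FLNC, 2 of these overlapping GCGGGGGCG, and in 42.6% of promoters. The full cAMP response element TGACGTCA (1.65% of promoters), the AP-1 motif TGANTCA (6.57%) and the heat shock pair TTCNNGAA (6.62%) were in neither window.

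FLNC was higher in PKI in every library. It measured 101, 96.0 and 96.4 CPM in PKI A, B and C, against 58.9, 58.9 and 59.4 CPM in inPKI A, B and C. The groups did not overlap, and the lowest PKI library lay 36.6 CPM above the highest inPKI library. The mean was 97.9 ± 2.93 CPM in PKI and 59.1 ± 0.241 CPM in inPKI (SD, n = 3 each), a ratio of 1.66. On the log2(CPM + 1) scale the change, PKI minus inPKI, was 0.72 ± 0.051 (SE of the linear model). These values rest on 2205 to 2884 reads per PKI library and 1435 to 1616 reads per inPKI library. The spread among inPKI libraries, 0.408% of the mean, was below the counting error of one library, 2.57%, so that SD understates the error of the inPKI level. In PKI the spread was 2.99% and the counting error 1.97%. With exact Poisson intervals at the 95% level, which cover counting error only, the lowest bound in PKI was 92.5 CPM and the highest bound in inPKI 62.5 CPM.

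FLNA was the more abundant of the pair and differed far less. It measured 274, 276 and 263 CPM in PKI A, B and C, against 256, 246 and 255 CPM in inPKI A, B and C. The groups did not overlap, but PKI C lay only 7.35 CPM above inPKI A, and the Poisson intervals of those libraries, 257 to 270 CPM in PKI C and 250 to 262 CPM in inPKI A, did overlap. The mean was 271 ± 6.96 CPM in PKI and 252 ± 5.47 CPM in inPKI (SD, n = 3 each), 7.58% higher in PKI, a log2 change of 0.10 ± 0.054 (SE). Of the 14275 genes tested, 10.9% had groups that did not overlap with PKI higher, and 20.2% had a log2 change at or above that of FLNA. A log2 change at or above that of FLNC was found in 31 genes, 0.217% of those tested, FLNC included.

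**Figure D1:**
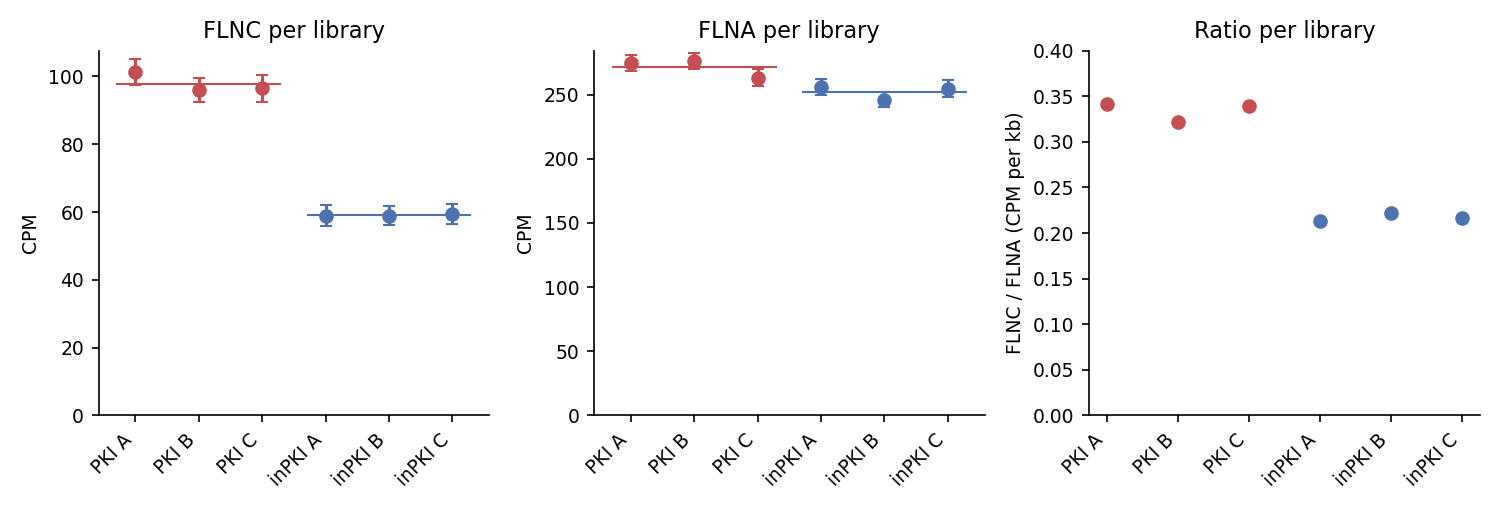
FLNC and FLNA in CPM, and the ratio of FLNC to FLNA in CPM per kb of transcript, in each PKI library (red) and inPKI library (blue). Points are single libraries, bars are exact 95% Poisson intervals and lines are group means; FLNC was at 96.0 to 101 CPM in PKI and 58.9 to 59.4 CPM in inPKI, while FLNA was at 263 to 276 and 246 to 256 CPM.

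Per kb of the longest transcript, FLNC stood at 10.7 ± 0.319 CPM per kb in PKI and 6.43 ± 0.0262 in inPKI (SD, n = 3 each). FLNA stood at 31.8 ± 0.817 CPM per kb in PKI and 29.6 ± 0.642 in inPKI, the higher of the pair in all 6 libraries. The ratio of FLNC to FLNA per kb was 0.342, 0.322 and 0.340 in PKI A, B and C, against 0.213, 0.222 and 0.216 in inPKI A, B and C. This ratio is taken within a library, so a common scaling of the library does not move it, and the groups did not overlap. The log2 ratio of FLNC to FLNA in CPM was higher in PKI by 0.62, which shows unequal change and not that FLNA stayed the same. The 2 genes together made up 369 ± 8.36 CPM in PKI and 311 ± 5.57 CPM in inPKI, and FLNC, the less abundant, made up 67.0% of that difference.

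Few 50-base stretches of these genes occur elsewhere. Of the 50-base stretches of the FLNC transcript, 3.51% also occur in transcripts of 3 other genes, FLNA among them, and of those of FLNA 0.0118%, all in FLNC. RP11-309L24.6, a pseudogene with stretches of FLNC, had 1 read in PKI B and 0 in the other 5 libraries. RP11-309L24.2, annotated as antisense to FLNC, had 1 read in PKI A, 1 in inPKI B and 0 in the other 4 libraries. AC245140.3, annotated as antisense to the start of FLNA, was not analysed here. Whether the counting used strand is not given in the sources used here.

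By the authors' deposited table, FLNC had a log2 fold change of 0.74 ± 0.37 and FLNA one of 0.12 ± 0.10 (SE as deposited, PKI over inPKI after its sign was turned). In the authors' deposited table the mean level of FLNA was 28.8 times that of FLNC, while in the 6 libraries FLNA was 2.71 to 4.34 times FLNC in CPM. The authors' deposited table also gives a mean above 0 to all 2069 genes that are at 0 in all 6 libraries, so its means do not rest on these 6 columns alone, and its errors are not those of the values above.

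None of 7 tested genes near the filamin genes passed the threshold, and only 0.126% of all genes tested did. Every p given for them and for the lists that follow is from limma, 2-sided, adjusted by the Benjamini-Hochberg method over the 14275 genes tested, with a threshold of 0.05. ATP6V1F, a subunit gene of the vacuolar proton pump 3.55 kb beyond the end of FLNC, had 89.2 ± 3.91 CPM in PKI and 100 ± 1.32 CPM in inPKI (SD, n = 3 each), a log2 change of -0.17 ± 0.053 (SE, adjusted p = 0.199). On the other side CCDC136, 8.25 kb from FLNC, had 11.2 and 9.59 CPM in PKI and inPKI, a log2 change of 0.21 ± 0.088 (SE, adjusted p = 0.324). CALU and TNPO3, the next tested genes outward, had log2 changes of -0.051 and 0.018 (adjusted p = 0.730 and 0.899). Beside FLNA, EMD, the gene of the nuclear membrane protein emerin, and the ribosomal protein gene RPL10 had log2 changes of -0.14 ± 0.068 and -0.16 ± 0.086 (SE, adjusted p = 0.369 and 0.435). IRAK1, 329 kb away on the other side of FLNA, had -0.057 (adjusted p = 0.702). Without PKI C these were -0.072 for EMD, -0.052 for RPL10 and -0.019 for IRAK1, and without inPKI A or PKI B -0.017 and -0.086 for IRAK1. The longest transcripts of ATP6V1F and EMD are short, at 711 and 1379 nt. With the trends of transcript length and GC content removed, as described next, ATP6V1F was at -0.033 and EMD at -0.060. RPL10 was then at -0.11 and CCDC136 at 0.21.

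Transcript length ran with the group in these libraries, and both filamin transcripts are long. Across 14242 genes with a length, the log2 change had a Spearman correlation of 0.45 with transcript length, as a description across genes that share the same 6 libraries and are not independent. The median log2 change was -0.14 in 850 genes with transcripts under 1000 nt, -0.028 in 5287 genes of 2000 to 4000 nt and 0.11 in 1132 genes of 8000 to 16000 nt. FLNA lay at the middle of its length class, where 52.3% of genes had a log2 change at or above it. FLNC did not: in the same class 2 of the 1132 genes were at or above it, FLNC itself and CHD5, a chromatin remodeller gene at 2.25 and 0.846 CPM in PKI and inPKI (named once its values were known). Once the trends of length and GC content were removed from each library, the log2 change was 0.61 ± 0.041 (SE) for FLNC and 0.0091 ± 0.039 for FLNA. Removing the trends can also take away a part of the difference between the groups, since length runs with them.

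Transcripts as long as those of the filamins stood highest in PKI C, the library with the fewest recovered reads. The median deviation from a gene's own mean, on the log2(CPM + 1) scale, for transcripts of 8000 to 16000 nt was 0.041, 0.037 and 0.085 in PKI A, B and C, against -0.044, -0.077 and -0.045 in inPKI A, B and C. FLNA deviated by 0.069, 0.078 and 0.0099 in PKI A, B and C, against -0.031, -0.088 and -0.038 in inPKI A, B and C, so PKI C was the highest for the class and the lowest of its group for FLNA. FLNC deviated by 0.41, 0.33 and 0.34 in PKI A, B and C, against -0.36, -0.36 and -0.35 in inPKI A, B and C, beyond the class in every library. Without PKI C the log2 change was 0.73 for FLNC and 0.13 for FLNA.

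**Figure D2:**
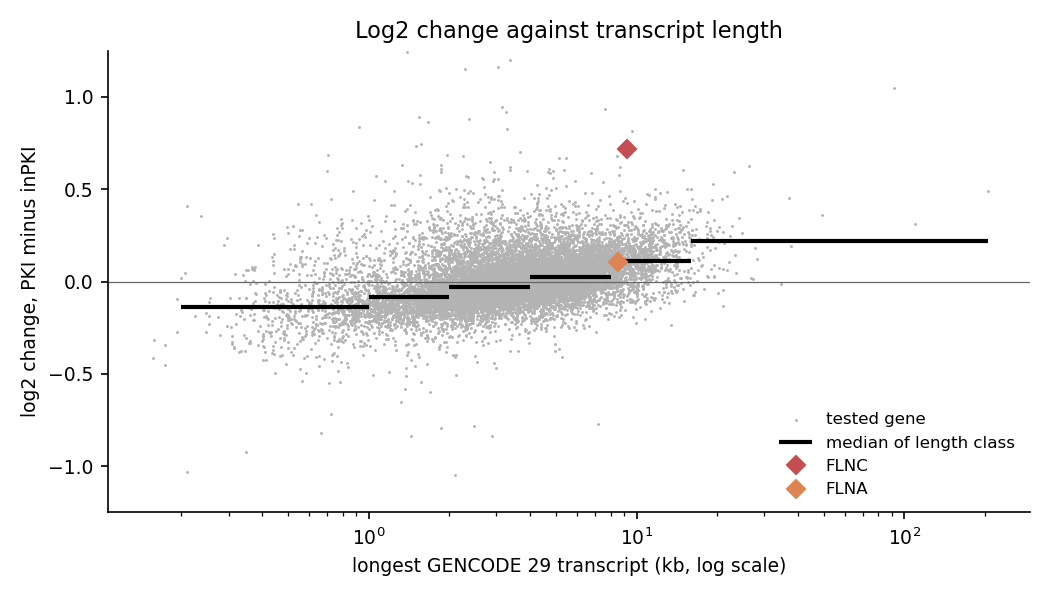
Log2 change, PKI minus inPKI, of tested genes (grey) against the length of the longest transcript on a log axis, with the median of each length class (black lines) and the 2 filamin genes (diamonds). FLNA sits by the median of its class, 0.11, and FLNC at 0.72 lies above it; 14 genes lie outside the vertical axis.

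Genes that work with filamins were then examined in lists chosen with earlier results of these data known, FLNA and FLNC being in none of them. Over all genes 18 passed the threshold (0.126%), 14 higher (0.0981%) and 4 lower (0.028%) in PKI, and the median log2 change was -0.0074. Without PKI A, B or C there were 25, 84 and 35 higher and 12, 30 and 11 lower, and without inPKI A, B or C 9, 9 and 12 higher and 2, 0 and 2 lower. At an unadjusted p below 0.05, 7.53% of the genes tested were higher and 6.16% lower, and edgeR and DESeq2 on the recovered reads called 11 and 216 genes, 0.0771% and 1.51%. DESeq2 gave no adjusted p to some genes of low level, FBLIM1, SVIL and NEB among them. Here and in the lists these genes count as not called.

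Of 27 binding partners and regulators of filamins 15 passed the filter on low values, and 0 passed the threshold in limma or edgeR. At an unadjusted p below 0.05 there were 2 higher and 0 lower, and the median log2 change was 0.074, or 0.040 without PKI B. The 12 that did not pass the filter include muscle partners such as myotilin, whose gene MYOT was at 0.022 and 0.025 CPM in PKI and inPKI. TRIO, an exchange factor for small GTPases that binds filamin, had the smallest p, with 77.8 ± 5.87 CPM in PKI and 64.1 ± 2.36 CPM in inPKI (SD, n = 3 each), a log2 change of 0.27 ± 0.061 (SE, adjusted p = 0.110). With the trends of length and GC removed, TRIO, with a transcript of 11100 nt, had a log2 change of 0.15. It was the 1 partner called by DESeq2 (adjusted p = 0.00767), and it passed in limma without PKI B (0.0270), its adjusted p spanning 0.00767 to 0.471 across settings. The integrin gene ITGB1, whose tail filamin holds, had 133 ± 10.3 and 134 ± 5.01 CPM in PKI and inPKI, and RFLNB, the gene of the filamin-bundling protein refilin B, had 73.4 ± 3.92 and 74.2 ± 2.34 CPM (SD, n = 3 each; adjusted p = 0.936 and 0.925). FBLIM1, which encodes migfilin, a link between filamin and adhesions, had a log2 change of 0.14 ± 0.092, and INPPL1, the gene of the phosphatase SHIP2, 0.087 ± 0.051 (SE, adjusted p = 0.502 and 0.466). VIM, the intermediate filament gene, had -0.079 ± 0.068 (SE, adjusted p = 0.627). FBLIM1 was at 0.093 without PKI A and 0.084 without inPKI C, and VIM at -0.12 without PKI B and -0.024 without PKI C.

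Of 13 genes of the autophagy pathway that clears damaged filamin, 11 passed the filter and 0 passed the threshold in limma, edgeR or DESeq2. At an unadjusted p below 0.05 there were 0 higher and 2 lower. The median log2 change was -0.016, and 0.012 without PKI C. BAG3, the co-chaperone that leads the pathway, had 77.8 ± 5.82 CPM in PKI and 71.8 ± 2.98 CPM in inPKI (SD, n = 3 each), a log2 change of 0.11 ± 0.062 (SE, adjusted p = 0.433), or 0.072 without PKI A and 0.18 without PKI C. HSPB1, a small heat shock protein gene, had the smallest p of the list, with 47.9 ± 3.33 CPM in PKI and 54.6 ± 3.43 CPM in inPKI (adjusted p = 0.239). HSPB7, the gene of another small heat shock protein that binds filamin C, was at 0 reads in all 6 libraries.

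Other proteins hold actin with the same tandem of calponin homology folds as the filamins. Of their 20 genes 18 passed the filter and 0 passed the threshold in limma, while at an unadjusted p below 0.05 there were 7 higher and 0 lower, and the median log2 change was 0.049. This list has long transcripts, with a median of 8703 nt against 3538 nt over all genes tested. With the trends of length and GC removed, 1 was higher and 0 lower at an unadjusted p below 0.05 (5.26% and 5.27% over all genes), and the median was -0.031. SYNE2, the gene of the nuclear envelope protein nesprin-2, had the smallest p, with 45.4 ± 7.39 CPM in PKI and 32.4 ± 0.574 CPM in inPKI (SD, n = 3 each), a log2 change of 0.47 ± 0.086 (SE, adjusted p = 0.0504) and of 0.26 with the trends removed. Without PKI B, 3 genes of the list passed, and without PKI A or PKI C, 1, which was SYNE2 (adjusted p = 0.0107 without PKI B, 0.0246 without PKI A and 0.0161 without PKI C, spanning 0.000472 to 0.333 across settings). DESeq2 called 3 (SYNE2, and MACF1 and DST, genes of giant cytoskeletal linkers both named once their values were known) and edgeR 0. The alpha-actinin genes ACTN1 and ACTN4, the nearest to filamins in function, had log2 changes of -0.045 ± 0.065 and -0.0016 ± 0.059 (SE, adjusted p = 0.79 and 0.995). Both turned above 0, at 0.039 and 0.046, without PKI C, and that of ACTN4 also without inPKI A, at 0.023, and under other scalings, at 0.0064 to 0.0079.

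In the remaining lists of the actin skeleton 0 genes passed in limma or edgeR. Of 28 tested bundlers and side-binders 2 were higher and 3 lower at an unadjusted p below 0.05, with a median log2 change of -0.018 (0.026 without PKI C) and the smallest p at SVIL, the gene of supervillin (log2 change 0.31 ± 0.11, SE, adjusted p = 0.233). Of 25 tested integrin and focal adhesion genes 2 were higher and 0 lower, with a median of 0.036 (0.018 without PKI B, 0.059 without PKI C, 0.057 without inPKI A). With the trends of length and GC removed the counts were the same, 2 and 0, and the median was 0.0055. LPP, a zyxin-related adhesion gene, had 28.8 ± 1.76 CPM in PKI and 22.8 ± 0.656 CPM in inPKI (SD, n = 3 each, adjusted p = 0.0878), and it passed without PKI B (0.0410) and by DESeq2 (0.0128), spanning 0.0128 to 0.445. The transcript of LPP has 18277 nt, and its log2 change was 0.32, or 0.13 with the trends of length and GC removed. TLN1, the gene of the integrin activator talin, had 238 ± 15.8 and 239 ± 3.65 CPM in PKI and inPKI (adjusted p = 0.986).

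Of 21 tested genes of SRF, the MRTF coactivators and their actin-linked targets 5 were higher and 0 lower at an unadjusted p below 0.05. The median log2 change was -0.023 (0.041 without PKI C). With the trends of length and GC removed, 4 were higher and 0 lower at that level (5.26% and 5.27% over all genes), and the median was -0.012. The MRTF genes MKL1 and MKL2, named once their values were known, had log2 changes of 0.13 and 0.18 (adjusted p = 0.342 and 0.258). CNN1, in this list and in that of the side-binders, did not pass the filter and was named once its values were known. CNN1 stood at 1.18, 0.932 and 0.744 CPM in PKI A, B and C. In inPKI A, B and C it stood at 0.312, 0.365 and 0.165 CPM, so PKI was higher without overlap, at a low level. SRF itself had 93.7 ± 10.1 CPM in PKI and 101 ± 4.20 CPM in inPKI (SD, n = 3 each, adjusted p = 0.501), a log2 change of -0.11, or -0.19 without PKI A and -0.038 without PKI C. MYH9, the heavy chain gene of non-muscle myosin, had the smallest p, with 360 ± 11.2 CPM in PKI and 322 ± 6.80 CPM in inPKI (adjusted p = 0.239), and it passed without PKI C (0.0444) and by DESeq2 (0.00367), spanning 0.00367 to 0.615. The log2 change of MYH9 was 0.16, or 0.086 with the trends removed. DESeq2 called 1 of the adhesion genes and 1 of the SRF list.

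**Figure D3:**
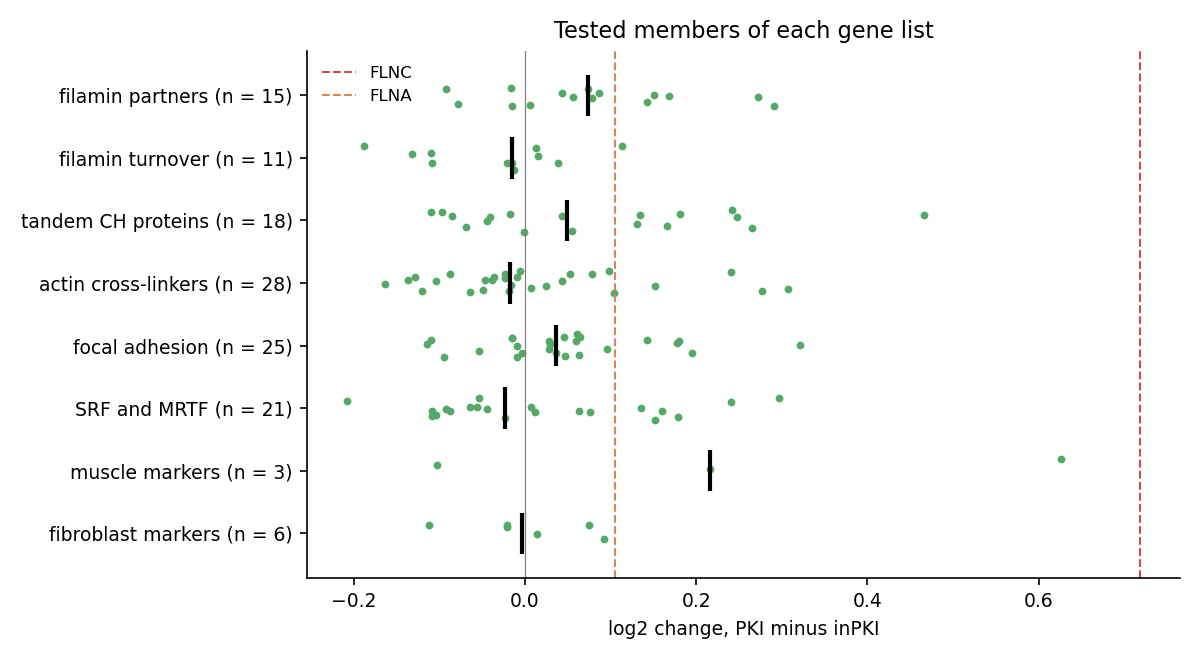
Log2 change, PKI minus inPKI, of the tested members of 8 gene lists (green points, spread vertically at random) with each list's median (black) and the values of FLNC and FLNA (dashed lines). FLNC at 0.72 lies beyond each point shown, the nearest being NEB at 0.63, and FLNA at 0.10 lies among the points of most lists.

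As filamin C is best known from muscle, markers of muscle were set beside FLNC. Of 18 markers 15 were in the table and 3 passed the filter, with 0 called and a median log2 change of 0.22 (0.10 without PKI C). The summed level of the 15 was 29.7 to 36.3 CPM over the PKI libraries and 29.6 to 31.7 CPM over the inPKI libraries. Most of that sum was TNNT1, a troponin gene, at 18.8 CPM in PKI and 20.3 CPM in inPKI, and MYH3, the embryonic myosin heavy chain gene, was at 6.90 and 5.76 CPM, both named once their values were known. The groups did not overlap for either gene, with PKI lower for TNNT1 and higher for MYH3. Of the 14275 genes tested, 1550 (10.9%) had groups that did not overlap with PKI higher, and 1267 with PKI lower. Below the filter, 10 markers were under 1 CPM in all 6 libraries. Of these DES, the muscle intermediate filament gene, was at 0.049 and 0.10 CPM in PKI and inPKI, TNNI1, another troponin gene, at 0 reads in all 6 libraries, and ACTA1, the skeletal actin gene, at 0.754 and 0.378 CPM, higher in PKI without overlap. NEB, the gene of the giant thin filament protein nebulin, had 3.41 ± 1.67 CPM in PKI and 1.77 ± 0.538 CPM in inPKI (SD, n = 3 each), a log2 change of 0.63 ± 0.21 (SE, adjusted p = 0.231) and of 0.39 with the trends of length and GC removed. Its libraries were at 2.4, 2.5 and 5.3 CPM in PKI A, B and C, against 1.8, 1.2 and 2.3 CPM in inPKI A, B and C. PKI was thus higher without overlap for NEB too, and without PKI C its log2 change was 0.33. Of 16 fibroblast markers 6 passed the filter and 0 the threshold. Their summed level was 206 to 211 CPM over the PKI libraries and 202 to 211 CPM over the inPKI libraries, and the smallest p was at COL5A1, a collagen gene (11.3 and 12.3 CPM in PKI and inPKI, adjusted p = 0.553).

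The genes whose pattern over the 6 libraries lay nearest to that of FLNC were taken by the root mean square difference of log2(CPM + 1) after each gene's mean was removed, among 11060 other genes with a mean of at least 5 CPM. As the pattern of FLNC is mostly its difference between the groups, the log2 changes of these genes are not independent of that choice. The nearest was HSPA6, a stress-inducible HSP70 gene, at a difference of 0.12, with 77.7 ± 6.91 CPM in PKI and 41.6 ± 2.33 CPM in inPKI (SD, n = 3 each). PALM2-AKAP2, which joins paralemmin 2 to an anchoring protein of protein kinase A, followed at 0.13 and the pseudogene SMG1P3 at 0.15. ARFGEF3 and ADPRHL1 were both at 0.16. Reads of HSPA6, PALM2-AKAP2 and SMG1P3 may be shared with near-identical or overlapping genes. The genes nearest to FLNA were TECPR2 at 0.011, BAZ1A and CDK5RAP2 at 0.013 and KAT6A and PDPK1 at 0.015. These differences are not comparable with those of FLNC, since the measure depends on the size of a gene's deviations, which are small in FLNA. The 5 genes nearest to FLNA had log2 changes of 0.084 to 0.11, which again are not independent of the choice, and transcripts of 6010 to 9254 nt.

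**Figure D4:**
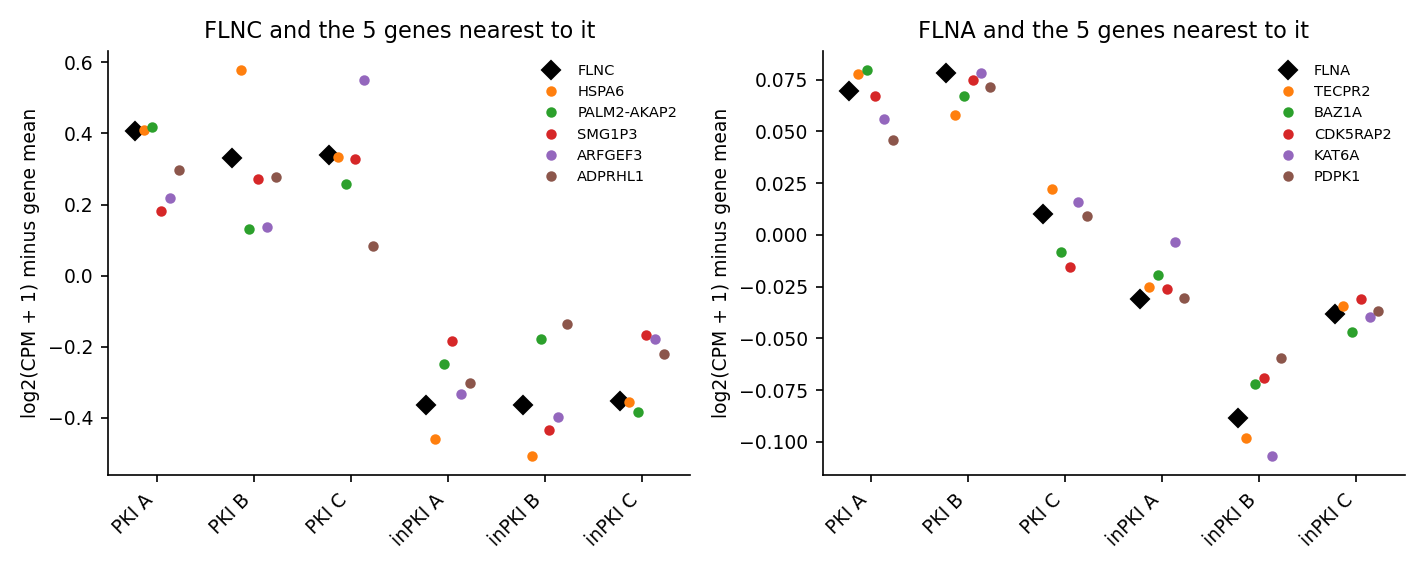
Deviation of log2(CPM + 1) from the gene's mean in each library for FLNC (left) and FLNA (right) as black diamonds, with the 5 genes nearest to each as coloured points. The nearest gene to FLNC lay at a root mean square difference of 0.12 and the nearest to FLNA at 0.011; the 2 vertical axes differ in range.

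Under the alternatives run the log2 change of FLNC was 0.61 to 0.74 and that of FLNA 0.0091 to 0.13, both lowest with the trends of length and GC removed.

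**Figure D5:**
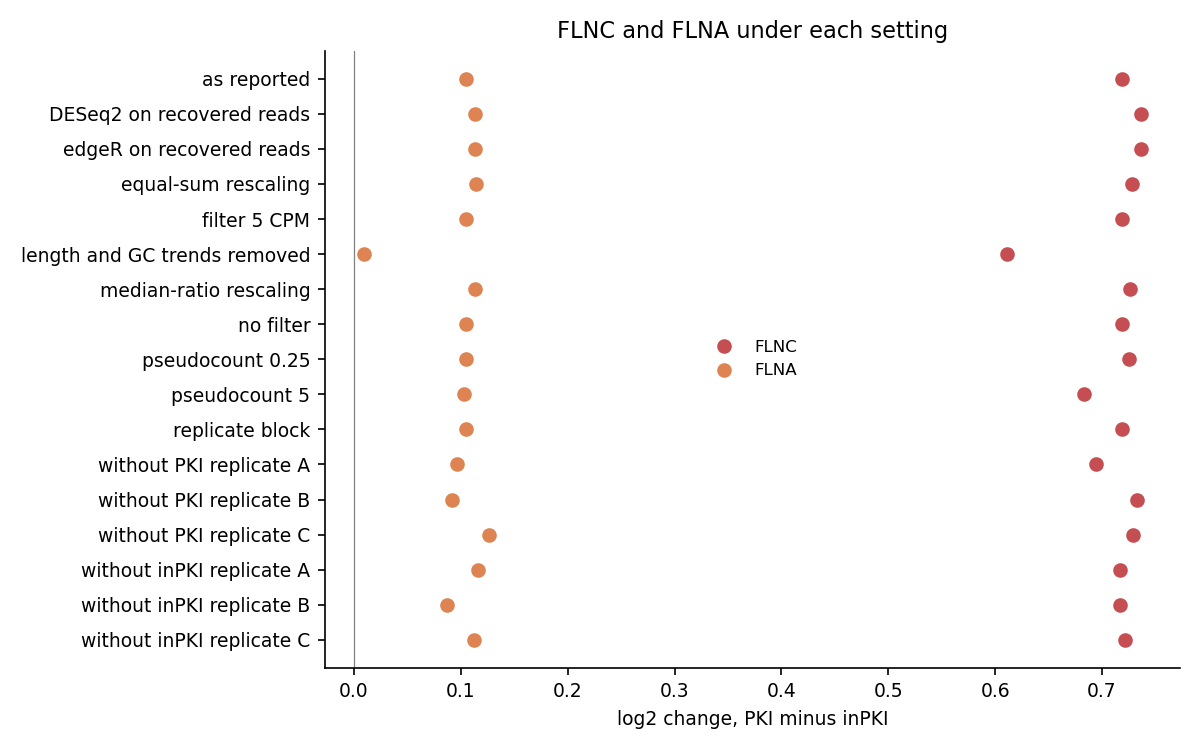
Log2 change, PKI minus inPKI, of FLNC and FLNA as reported and under each of the 16 alternatives. FLNC stays between 0.61 and 0.74, and FLNA between 0.0091, with length and GC trends removed, and 0.13.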

How the data were processed

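RNA from HEK293 cells was sequenced in 3 PKI and 3 inPKI libraries, grouped by their titles. Tools named, without role or setting, in the submitters' processing notes are STAR 2.5.2b, cutadapt 1.14, DESeq2 1.20.0 and RSEM 1.3.0, on the build hg19. The authors deposited CPM per gene and library, scaled by TMM as the table's name has it. The libraries do not share a common total, their CPM summing to 754299 in PKI C and up to 785007 in PKI B. All values (100%) were whole multiples of the smallest in their column, within 0.01 reads, and division by it gave whole reads. The authors' deposited comparison holds, per the file headers, a mean signal, a log2 fold change with its error, a Wald score, a signed fold change, a p-value and an adjusted p-value. In all 30960 rows its log2 sign is opposite to its signed fold, and it is printed turned to PKI over inPKI.

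The scale was log2(CPM + 1), on which changes of low genes come out smaller, for 14275 genes with at least 1 CPM in 3 libraries. They were fitted with limma 3.58.1 in R 4.3.3 (trend, 2-sided, Benjamini-Hochberg). For a single value, an exact permutation test of 3 against 3 cannot go below 0.1. edgeR 4.0.16 and DESeq2 1.42.0 were run on the recovered reads, and the tests were tried on simulated counts. Identifiers were matched without version to GENCODE 29 (30795 matched, 165 not); its GRCh38 positions are not those of the hg19 alignment. Trends were lowess fits with a span of 0.3. A sequence alignment was made with biopython 1.88 and figures with matplotlib 3.10.9.

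Named genes are the members, 10 fixed filamin partners and relatives, the up to 3 called members or else the smallest p of each of 9 lists, the 5 genes nearest to each member, and the 2 tested neighbours on each side. Some items under this rule are not reported here. Members, lists and rule were chosen with earlier results of these data known.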

Additional observations from a re-analysis of the deposited data

How the results depend on the processing

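The log2 change of FLNC was 0.68 with a pseudocount of 5 CPM, 0.61 with length and GC trends removed and 0.69 to 0.73 with 1 library left out. That of FLNA was 0.0091 with the trends removed and 0.087 to 0.13 with 1 library left out. Taken from log2(CPM + 1) and not from the CPM ratio, the change in their log2 ratio was 0.61. It was 0.58 with a pseudocount of 5 CPM and 0.60 to 0.64 with 1 library left out. Genes called higher, 14 as reported, were 110 by DESeq2, 4 with no filter, 102 with a replicate block and 9 to 84 with 1 library left out. Genes called lower, 4 as reported, were 106 by DESeq2, 1 by edgeR and with either rescaling, 0 with the trends removed or with no filter, 22 with the block and 0 to 30 with 1 library left out. DESeq2 called 1 filamin partner, 3 tandem calponin homology genes, 1 adhesion gene and 1 SRF gene, the block 1, 3, 1 and 0, and the 5 CPM filter 1 tandem calponin homology gene. With 1 library left out these lists had 0 to 1 called, or 0 to 3 for the tandem calponin homology list. The letters A, B and C do not pair the libraries by the labels, and the deviations of libraries with the same letter correlated at 0.017, 0.014 and 0.028, although each library correlated best with its own letter. None of the genes that changed direction passed in either setting. With 1 library left out, log2 changes ran from -0.091 to 0.039 for ACTN1, -0.045 to 0.046 for ACTN4, -0.097 to 0.0040 for CALU, -0.078 to 0.020 for ITGB1, -0.052 to 0.024 for RFLNB and -0.044 to 0.050 for TLN1. ACTN4 was at 0.0073 by DESeq2, 0.0075 by edgeR, 0.0079 with equal sums and 0.0064 with median ratios, and TLN1 at 0.0060, 0.0062, 0.0063 and 0.0047. Where no value shows it, the cause was not tested. Depth leaves FLNC a counting error of 1.97% per PKI library and 2.57% per inPKI library.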
